A study of Mus musculus with 34 samples.

Results

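The inner mitochondrial membrane of the liver cell holds the respiratory chain, and the genes described here encode the subunits of it that are made from nuclear genes. Members were all genes whose symbol starts with Nduf, Uqcr, Cox4i, Cox5, Cox6, Cox7, Cox8 or Atp5. Assembly factors named Ndufaf and symbols with -ps were left out. This gave 85 of the 37583 genes in the files: 39 of complex I, 8 of complex III, 21 of complex IV and 17 of complex V. Of these, 81 are annotated as protein coding and 4 (Cox6c2, Ndufa11b, Ndufb4c and Ndufs6b) as processed pseudogenes that lack the -ps ending. Reads of such near-identical copies can be split between a copy and its parent gene, so the values of these 4 are uncertain.

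Complex I oxidises NADH and passes the electrons to ubiquinone, complex III passes them on to cytochrome c, and complex IV hands them to oxygen. All of these pump protons, and complex V, the ATP synthase, lets the protons back to make ATP. Mitochondrial DNA encodes part of the core of each of these complexes, and its genes were not analysed here, and the other subunits come from nuclear genes on many chromosomes. In liver the chain supplies the ATP for glucose, urea and bile acid synthesis, and it takes up the electrons from fatty acid oxidation.

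All samples were livers of F1 (C57Bl6/CBA) mice at 45 days of age. The wild-type group (WT) was compared with Setd8lox/lox-Alb-Cre mice (KO). In these mice an albumin promoter drives Cre in hepatocytes. Cre removes exon 7 of the gene for the histone H4 lysine 20 methyltransferase Set8 (Setd8, PR-Set7, now Kmt5a). Which other cells of the liver keep the gene was not tested. Poly(A) mRNA was sequenced in 3 libraries per genotype. Nascent RNA was captured in 2 ways, with 1 library per genotype each. In the EU libraries, mice received 25 mg/kg ethynyl uridine 30 min before sacrifice and labelled nuclear RNA was purified. In the Br libraries, isolated nuclei ran on with bromouridine for 3 min. The labels do not say whether the mRNA replicates are separate mice, so p-values reflect only how these libraries vary, which may be technical. The 24 chromatin samples were not analysed here.

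Kmt5a mRNA read 593, 615 and 1076 in the WT libraries and 1199, 1040 and 1075 in the libraries labelled KO, so it was not lower there. These gene-level values include exons outside the deleted exon 7 and do not check the labels. Every direction below therefore rests on the labels. Scaled values per library summed to between 18069344 and 25820906. Hepatocyte markers were abundant in all 6 libraries, with Alb at 1070960 or more and with 0 of 8 called. Of 9 macrophage markers, Csf1r was called higher in KO, and their summed value was 6130 to 8046 in WT and 9188 to 20944 in KO. Of 8 stellate cell markers, Pdgfrb was called higher, with sums of 3382 to 4798 in WT and 6300 to 8081 in KO. Of 5 cholangiocyte markers, Spp1 was called higher, with sums of 535 to 703 in WT and 1027 to 1923 in KO. Spp1 itself read 263, 301 and 470 in WT and 1569, 1387 and 803 in KO. The groups overlapped for Krt19, Krt7, Epcam and Sox9. In bulk tissue, fewer cells of a type and less RNA per cell cannot be told apart, and the part of these other cells in the values below was not tested.

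WT replicate 3 stood apart from the other libraries. It had 20077 genes above 0, against 24497 to 26247 in the others. Among the 80 members tested in mRNA, 40 (50%) had their highest value of all 6 libraries there, against 28.5% of the 16813 genes tested. The members' median in WT replicate 3 was 0.38 (log2) above the mean of the other WT libraries, where the median of all genes was 0.04 above. The members have short transcripts, with a median of 764 nt against 2739 nt for all genes tested. For transcripts of 600 to 1000 nt the same difference had a median of 0.06 over all 1164 genes and 0.39 over the 28 members of that length. Without this library the difference between KO and WT turned its sign for 17 of the 80 members. Where that moved a printed mRNA difference of a member by over 1.5 times or turned its sign, the value without the library stands beside the other.

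Promoters of many respiratory chain genes are known to be bound by NRF1, by the ETS factor GABPA and by YY1. RefSeq promoter windows (GRCm38.p6, 250 bases before to 50 bases after the start) were at hand for 64 of the 85 members, in 69 windows. Both strands were searched for the consensus NRF1 motif of 10 bases (its first match in capitals under Cox6a1 below), the ETS core CCGGAAG and the YY1 core AANATGGCG, where N is any base. The NRF1 motif stood in the windows of 15 members (23.4%), against 10.4% of the 11280 genes with a window that were tested in mRNA and 5.19% of all 27025 symbols in the table. The ETS core stood in those of 14 members (21.9%), against 18% and 9.93%. The YY1 core stood in those of 10 members (15.6%), against 5.31% and 2.76%. In 7 of the 10 members with a YY1 match it lay after the start, whereas 4 of the 15 members with an NRF1 match had one there. Such a match describes letters and is not a measured binding site. Of the 64 members, 30 held no match to any of the motifs.

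Shown next are the 120 bases before the start, 5′ to 3′ on the gene's own strand, for members on which the mRNA results below turn. Cox6a1 is the most abundant member and holds both an NRF1 and an ETS match in these bases, Atp5k and Ndufa5 an NRF1 match, and Uqcrh and Uqcr11, of complex III, an ETS match. Cox6b1 and Cox6b2 are the body-wide and the testis form of the same complex IV subunit. Atp5k also holds an ETS match 13 to 19 bases after its start, outside the bases shown. Capitals mark the matches, and all 7 genes lie on the minus strand.
Cox6a1: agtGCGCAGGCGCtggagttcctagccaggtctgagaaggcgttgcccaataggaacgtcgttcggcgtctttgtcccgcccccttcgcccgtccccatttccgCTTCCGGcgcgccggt
Atp5k: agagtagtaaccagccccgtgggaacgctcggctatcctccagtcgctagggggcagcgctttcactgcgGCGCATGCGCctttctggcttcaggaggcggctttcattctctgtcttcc
Ndufa5: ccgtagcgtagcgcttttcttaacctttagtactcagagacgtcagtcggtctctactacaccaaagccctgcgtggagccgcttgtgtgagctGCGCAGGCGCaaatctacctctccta
Uqcrh: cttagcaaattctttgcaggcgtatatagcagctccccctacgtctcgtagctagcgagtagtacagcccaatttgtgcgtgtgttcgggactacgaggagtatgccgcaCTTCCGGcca
Uqcr11: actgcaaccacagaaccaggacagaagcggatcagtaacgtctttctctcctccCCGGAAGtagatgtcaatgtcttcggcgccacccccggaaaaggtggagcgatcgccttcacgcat
Cox6b1: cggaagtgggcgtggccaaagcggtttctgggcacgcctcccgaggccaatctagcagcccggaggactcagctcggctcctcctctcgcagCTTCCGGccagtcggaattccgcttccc
Cox6b2: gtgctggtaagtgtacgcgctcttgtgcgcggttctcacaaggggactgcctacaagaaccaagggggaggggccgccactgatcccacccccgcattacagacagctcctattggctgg
The windows are chr5:115348959-115349078 for Cox6a1, chr5:108434400-108434519 for Atp5k, chr6:24527691-24527810 for Ndufa5, chr4:116075071-116075190 for Uqcrh, chr10:80406822-80406941 for Uqcr11, chr7:30626115-30626234 for Cox6b1 and chr7:4753095-4753214 for Cox6b2. The Cox6b1 window holds the ETS core close to its start, and the Cox6b2 window holds none of the motifs searched.

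Respiratory chain mRNAs were among the more abundant in WT liver. Levels between genes are compared here only as scaled value per kb of transcript (GENCODE vM21). The 76 protein-coding members tested had a median of 2285 per kb, against 79.3 for the 16202 genes tested with a known length. Of the 76, 62 were at or above the 90th percentile of those genes. By complex the median was 1731 per kb for complex I, 4455 for complex III, 2994 for complex IV and 3452 for complex V. Read against nascent reads instead, the members had a median of 3.87 for log2 of WT mRNA value per EU read (70 members with at least 20 reads) where all genes had 0.38. Per Br read the medians were 4.50 (75 members) and 1.77. Neither the mRNA values nor the nascent reads were divided by length here. The part of the members' short transcripts in these gaps was not tested.

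The most abundant member was Cox6a1, a small subunit of complex IV that lies outside its catalytic core, at 31029 ± 8277 per kb (SD, n = 3 WT libraries). Next came Atp5e, the epsilon subunit of the ATP synthase, at 18641 ± 11604. Uqcr11, the smallest subunit of complex III, stood at 17333 ± 6461. Atp5b, the catalytic beta subunit, stood at 14727 ± 645. The values of these 4 per library overlapped between neighbours in the order: Atp5e was 13029, 10910 and 31983 per kb, and Uqcr11 was 13002, 14236 and 24760. Uqcrh, the hinge protein of complex III, was at 7982 ± 4026 and Cox8a at 9076 ± 3850. In complex I the highest members were Ndufb9 (8247 ± 873) and Ndufb11 (5953 ± 3458), both of the membrane arm. At the other end stood Cox6b2 (11.4 per kb), Ndufa4l2, Cox7a1 and Atp5s (now Dmac2l).

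**Figure D1:**
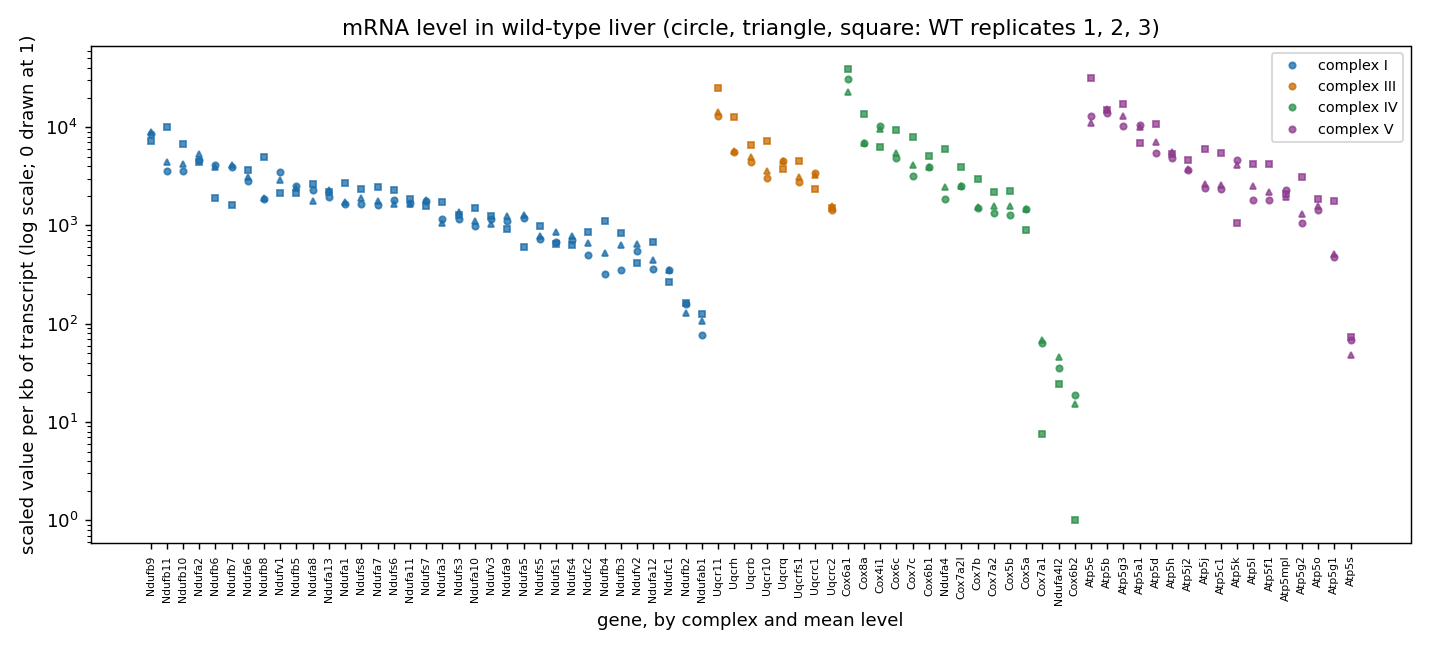
Scaled mRNA value per kb of transcript (log axis) of 75 protein-coding members tested, by complex and mean level, with a circle, triangle and square for WT replicates 1, 2 and 3. Most points lie above 300, Cox6a1 is highest, and Cox6b2, Ndufa4l2 and Cox7a1 fall far below the other complex IV genes.

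In mRNA, no member passed the test between KO and WT. limma called 0 of 80 members higher and 0 lower at a Benjamini-Hochberg adjusted p under 0.05, where 1.35% of all genes tested were called higher and 1.36% lower. At an unadjusted p under 0.05 limma had 16 members, 6 higher and 10 lower, where 10.2% and 9.78% of all genes were so. edgeR on re-estimated reads called 0 members, and DESeq2 called 3 higher and 7 lower (5.27% and 5.56% of all genes). The 3 were Cox6b2 and the copies Ndufa11b and Ndufs6b, and the 7 were Uqcrb, Ndufb5, Ndufb2, Uqcrh, Ndufb9, Cox6a1 and Uqcr11. The 5 members too low to test were Cox4i2, Cox6a2, Cox7b2, Cox8b and Cox8c. The members together took 1.18%, 1.20% and 1.20% of all scaled values in the WT libraries and 1.27%, 1.11% and 1.16% in the KO libraries, ranges that overlap.

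The members' differences were small and leaned downward in the full set of libraries. The median KO minus WT difference of log2(scaled value + 1) was -0.13, against 0.00 for all genes, and 54 of the 80 lay within 0.5 of 0. The sign was negative for 52 (65%) and positive for 28, where 49.8% of all genes were negative. Without WT replicate 3 the median was -0.01, with 43 negative and 37 positive. Short genes as a whole were not at 0. Over all genes under 600 nt the median was 0.44 (members -0.23), and at 600 to 1000 nt it was 0.12 (members -0.19). At 1000 to 2000 nt it was -0.01 (members -0.04). Without WT replicate 3 these were 0.38 (members -0.004), 0.14 (members -0.03) and 0.01 (members -0.01). The part of transcript length was not tested. By complex the medians were -0.04 for complex I, -0.11 for III, -0.15 for IV and -0.32 for V. Without WT replicate 3 they were 0.14, -0.01, -0.06 and -0.12.

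**Figure D2:**
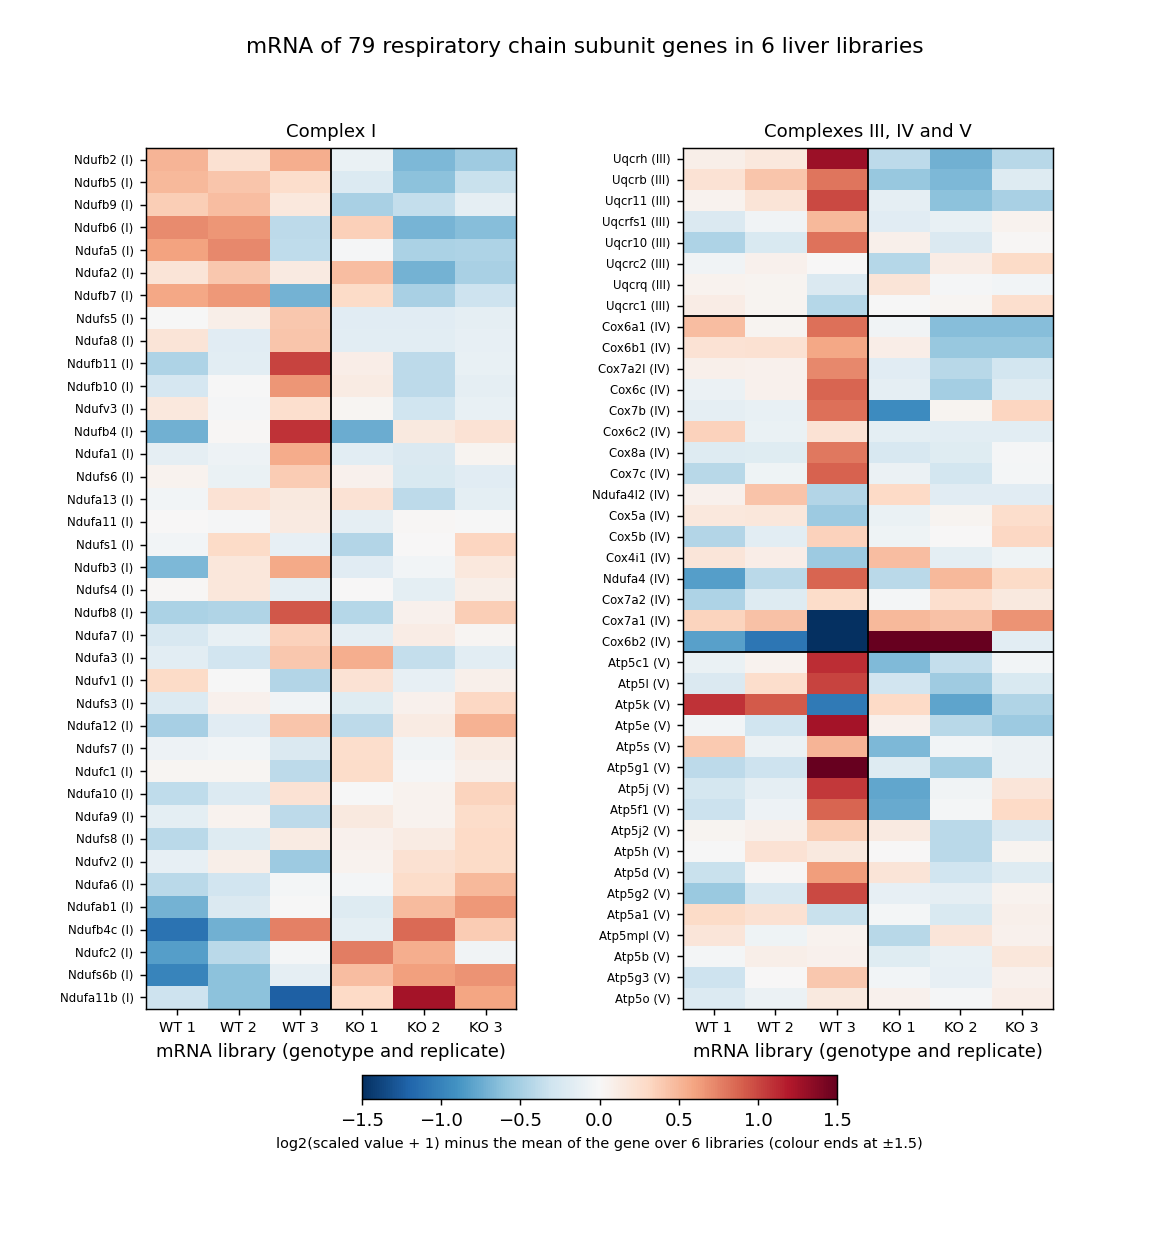
Each row is 1 of 79 tested members and each column an mRNA library, and the colour gives log2(scaled value + 1) minus the gene's mean over the 6 libraries (red high, blue low, ends at ±1.5). Rows are ordered by complex and difference, and the WT replicate 3 column is red for most genes of complexes III, IV and V and mixed for complex I.

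The libraries of the groups did not overlap for 13 members that were lower in KO and 6 that were higher, where 12.8% and 13.2% of all genes did so. Without WT replicate 3, which leaves 2 WT libraries, it was 18 and 17 members, where 23.5% and 22.2% of all genes did so, and all of the 13 and 6 were among them. Of the 13 and 6, members beyond the first 5 per direction were named after their values were seen. Among the lower ones, complex III stood first. Uqcrh read 3031, 3160 and 6908 in WT and 2167, 1722 and 2132 in KO. Every KO value was below every WT value, and WT replicate 3 was far above the other WT libraries. The fitted difference was -1.02 ± 0.32 (SE, limma adjusted p = 0.136), and -0.63 without that library. Uqcrb, a subunit near the ubiquinone site, read 2347, 2680 and 3508 in WT and 1356, 1265 and 1758 in KO, again with no overlap. It fitted at -0.96 ± 0.22, with a limma adjusted p of 0.064 in the full set and 0.043 without WT replicate 3 (difference -0.80). Uqcr11 read 5786, 6335 and 11018 in WT and 5056, 3634 and 3978 in KO, a difference of -0.82 ± 0.28 (limma adjusted p = 0.157), and -0.53 without WT replicate 3.

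The other 5 members of complex III had differences within 0.2 of 0 and overlapping libraries. Uqcrfs1, the Rieske iron-sulphur protein, was at -0.15, and the core proteins Uqcrc1 and Uqcrc2 were at 0.19 and -0.01. With WT replicate 3 left out, Uqcrfs1 was at 0.06 and Uqcrc1 at 0.02. Uqcrq and Uqcr10, the remaining small subunits, were at 0.08 and -0.08. Uqcrq was at -0.01 without that library, and Uqcr10 was at 0.31 with no overlap upward. With and without that library the 3 lowest members of the complex were the small accessory subunits Uqcrh, Uqcrb and Uqcr11.

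In complex IV the lowest member was Cox6a1, which read 17517, 13095 and 22541 in WT and 12298, 8169 and 8135 in KO. The groups did not overlap, and the gap between WT replicate 2 and KO replicate 1 was small. Its difference was -0.89 ± 0.28 (limma adjusted p = 0.128). Cox6b1, Cox7a2l, Cox6c and the copy Cox6c2 also had no overlap, with differences of -0.69, -0.57, -0.56 and -0.31. Cox7a2l was at -0.35 and Cox6c at -0.26 without WT replicate 3. Cox4i1, Cox5a and Cox5b were at 0.18, 0.14 and 0.17 with overlapping groups. The sign turned without that library for Cox4i1 (-0.05) and Cox5a (-0.10), and Cox5b was at 0.39 with no overlap.

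In complex I the lowest members were of the Ndufb series. All 10 coding Ndufb members, accessory subunits of the membrane arm, had negative differences, with a median of -0.31, and 6 of the 10 were negative without WT replicate 3 (median -0.37). The 13 Ndufa members were 6 negative and 7 positive (median 0.00, and 0.18 without WT replicate 3), and the 8 Ndufs members were 4 and 4 (median 0.05, and 0.02 without). This split by name was made after the values were seen. Ndufb2 read 689, 566 and 706 in WT and 451, 302 and 334 in KO, with a difference of -0.86 ± 0.22 (limma adjusted p = 0.074). Its KO values were all below its WT values. Ndufb9, the most abundant complex I member, read 5937, 6344 and 5136 in WT and 3282, 3610 and 4199 in KO, a difference of -0.65 (limma adjusted p = 0.111, and 0.045 without WT replicate 3). Ndufb5 was at -0.77 (limma adjusted p = 0.068, and 0.031 without WT replicate 3) and Ndufs5 at -0.32 (-0.20 without it), also with no overlap.

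The members with the highest differences in complex I were mostly of low level. The copies Ndufa11b and Ndufs6b read 52, 42 and 27 and 63, 82 and 115 in WT. In KO they read 80, 155 and 98 and 175, 195 and 202. Their differences were 1.43 ± 0.38 and 1.17 ± 0.28 (limma adjusted p = 0.087 and 0.067). The parent genes Ndufa11 and Ndufs6 were at -0.09 and -0.22 with overlapping groups, and at -0.04 and -0.09 without WT replicate 3. Among coding members, Ndufa6 read 1681, 1820 and 2184 in WT and 2189, 2689 and 3114 in KO (0.49 ± 0.21), with KO replicate 1 only just above WT replicate 3. Ndufa9 had a difference of 0.32, and 0.20 without WT replicate 3, again with no overlap. Ndufc2 read 340, 454 and 591 in WT and 1031, 882 and 580 in KO, which overlap. Its limma adjusted p was 0.154, and 0.046 without WT replicate 3 (difference 1.04).

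Complex V had the most uniform sign, with 16 of 17 members negative, but WT replicate 3 was the highest of the 6 libraries for 12 of the 17, and without it 11 of 17 were negative. Atp5c1, the gamma subunit that turns inside the catalytic head, read 2732, 3021 and 6323 in WT and 1847, 2281 and 2841 in KO. Without the 6323 of WT replicate 3 its difference moved from -0.71 to -0.33. Atp5a1 and Atp5b, the alpha and beta subunits of the head, were at -0.12 and -0.09 with overlapping groups. Atp5a1 was at -0.32 with no overlap without WT replicate 3. Atp5k, a subunit of the membrane part, went the other way in that library, at 1728, 1537 and 389 in WT and 1005, 469 and 595 in KO. Its difference was -0.63 ± 0.56 with WT replicate 3 and -1.31 without it (limma adjusted p = 0.033 without it). Atp5l was the complex V member with no overlap in the full set (-0.71, and -0.38 without WT replicate 3). Atp5o had the highest difference with all libraries, 0.10 (0.20 without WT replicate 3).

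**Figure D3:**
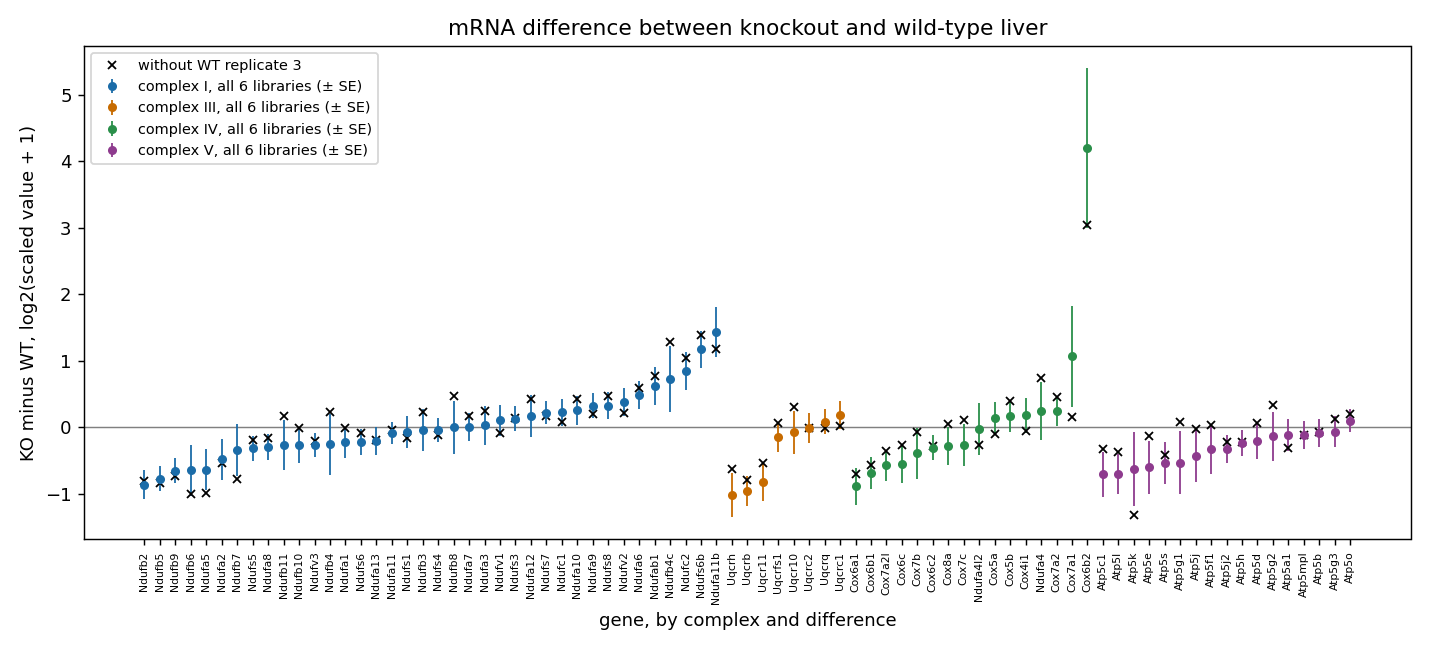
KO minus WT difference of log2(scaled value + 1) for 79 of the 80 tested members, by complex, as coloured points with the SE of the limma fit, and black crosses for the value without WT replicate 3. Most points lie within 0.5 of 0, Cox6b2 alone is above 4, and in complex V 11 crosses lie nearer 0 than the points and 6 farther from it, the farthest being Atp5k at -1.31.

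Subunits of the catalytic core of complex I had values on both sides of 0. Ndufs1 was at -0.08 (-0.16 without WT replicate 3), Ndufs3 at 0.13 and Ndufs7 at 0.22. Ndufv1, which binds NADH, was at 0.10, and its sign turned to -0.09 without WT replicate 3. Ndufv2 was at 0.38 (0.21 without it). Ndufs8 was at 0.33 with overlapping groups, and at 0.47 with no overlap without that library.

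Leaving out WT replicate 3 changed calls for single members. limma then called Ndufc2 and Ndufs6b higher and Uqcrb, Ndufb9, Ndufa5, Ndufb5 and Atp5k lower, 2 and 5 of 80, where 4.74% and 4.95% of all genes were called. Ndufa5, a peripheral arm subunit, read 1036, 1128 and 525 in WT and 673, 490 and 495 in KO, so WT replicate 3 sat among the KO libraries. Leaving out any other library gave 0 calls.

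Some members hardly varied. Ndufa11 read 929, 908 and 1016 in WT and 840, 930 and 916 in KO. Ndufs4, a peripheral arm subunit of complex I, read 1193, 1319 and 1071 against 1182, 1057 and 1244. Atp5b read 26812, 29143 and 28694 in WT and 24043, 25274 and 30914 in KO. All 3 had overlapping groups, with SEs of 0.17, 0.18 and 0.20. Others were set apart by WT replicate 3 alone: Atp5g1 read 2275, 2407 and 8416 in WT and 2611, 2085 and 2806 in KO. Atp5e read 5485, 4593 and 13465 against 5902, 4237 and 3894. For Ndufb11 the values were 3225, 3987 and 9004 against 4762, 3383 and 4114. In all 3 the remaining WT libraries lay within or close to the KO range, and the SE was 0.37 to 0.47.

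The presence of the ETS core went with lower mRNA differences among the members. The 14 members with the core had a median of -0.61, with 12 negative, and the 48 tested members with a window but no core had -0.07, with 28 negative. Without WT replicate 3 the medians were -0.45 and 0.10. Of the 14, 5 had no overlap downward (Uqcrh, Cox6a1, Uqcr11, Atp5l and Cox6b1) and 0 upward, and of the 48 it was 4 and 3, beside the 12.8% and 13.2% of all genes. Uqcrb, Ndufb9, Cox6c and Cox6c2, also with no overlap downward, had no window and are in neither group. Over all genes tested with a window the medians were -0.06 for 2036 genes with the core and -0.03 for 9244 without. For NRF1 the members' medians were -0.24 with the motif (15) and -0.09 without (47), and for YY1 they were -0.06 (10) and -0.21 (52). Without WT replicate 3 they were -0.09 and 0.06 for NRF1 and 0.03 and 0.03 for YY1. In nascent RNA the direction of the ETS split differed by method. The median log2(KO/WT) in EU was 0.28 for members with the ETS core (13 genes) and 0.003 for those without (40). In Br the medians were -0.06 and 0.24. These are descriptions with no test, and the split was looked at after the differences were known. The members with the ETS core were also shorter, with a median transcript of 595 nt against 892 nt. Gabpa, which encodes the ETS factor named above, read 1049, 899 and 1179 in WT and 477, 684 and 740 in KO. Its groups did not overlap, and its difference was -0.73 ± 0.22 (limma adjusted p = 0.122). Nrf1 was at 0.35 with overlapping groups and Yy1 at -0.42 with no overlap, neither called by limma.

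Several subunits of complexes IV and V exist as isoforms that differ between tissues, and shares within such groups are not moved by library scaling. Liver held the body-wide forms almost alone: Cox4i1 made 99.9% of the Cox4 pair in WT, Cox6a1 and Cox8a made 99.99% and 99.94% of their groups, and Cox7b made 99.88%. The heart and muscle forms Cox6a2 and Cox8b read at most 3 in any library. Striated muscle markers were low too, with sums of 16 to 82 over 8 genes in WT and 46 to 79 in KO. Ndufa4 made 98.6% of its pair with the hypoxia-inducible Ndufa4l2. Of the 3 genes for the identical membrane ring subunit c, Atp5g3 made 84.1 ± 5.6% in WT and 86.2 ± 0.2% in KO (SD, n = 3). Atp5g1 was 5.23 ± 2.55% and 3.63 ± 0.33%, with the highest share, 8.16%, in WT replicate 3. These shares depend on the transcript taken for each gene, of 4715 nt for Atp5g1, 731 nt for Atp5g2 and 723 nt for Atp5g3. Before division by length, Atp5g1 read 2275, 2407 and 8416 in WT and Atp5g2 771, 958 and 2258. Atp5g3 read 7449, 9336 and 12297 there.

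Within the Cox7a group the balance differed between genotypes. Cox7a2 is the liver form of this complex IV subunit, and Cox7a2l is the related protein that joins complexes III and IV in supercomplexes. Cox7a2 made 33.9%, 38.3% and 35.7% of the group (scaled value per kb) in WT and 44.8%, 53.9% and 49.5% in KO. All KO shares were above all WT shares, and WT replicate 3 lay between the other WT libraries. The means were 36.0 ± 2.2% and 49.4 ± 4.6%, a gap of 13.4 points (exact two-sided permutation test over the 6 libraries, p = 0.1, the smallest that 3 against 3 can give). Cox7a2l made 62.9 ± 2.4% in WT and 48.8 ± 4.6% in KO. Behind this were Cox7a2 values of 874, 1050 and 1456 in WT against 1178, 1433 and 1333 in KO, and Cox7a2l values of 2711, 2689 and 4265 against 2298, 1924 and 2134. This group was chosen for the test after the shares of 8 groups were seen. Any 3 against 3 without overlap gives this p, so the test adds no support to the gap.

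Cox6b2, the testis form of a subunit at the dimer contact of complex IV, had the highest difference of all members. It read 11, 9 and 0 in WT and 201, 192 and 18 in KO. All KO values were above all WT values, but KO replicate 3 was near WT and far from the other KO libraries. The difference was 4.20 ± 1.20 (limma adjusted p = 0.105), 3.05 without WT replicate 3, and 2.74 with a pseudocount of 10 in place of 1. Its share of the Cox6b pair was 0.48%, 0.39% and 0% in WT and 8.68%, 12.6% and 1.33% in KO, so Cox6b1 remained the main form in every library. DESeq2 gave an adjusted p of 0.026. In EU the WT library had 0 reads of Cox6b2 and the KO library 23, at least 15.5-fold higher against a floor of 3 reads in the WT library. Its mean EU RPKM was 0.67, below the floor of 1 set for nascent ratios, so the gene has no EU ratio. In Br it had 15 and 8 reads. The gene lies at chr7:4751792-4753094 (GRCm38) beside Kmt5c, which encodes another H4 lysine 20 methyltransferase. Kmt5c read 658, 550 and 561 in WT and 919, 761 and 897 in KO (0.54 ± 0.18, limma adjusted p = 0.147), and Fam71e2 on the other side read 0 in all 6 libraries.

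**Figure D4:**
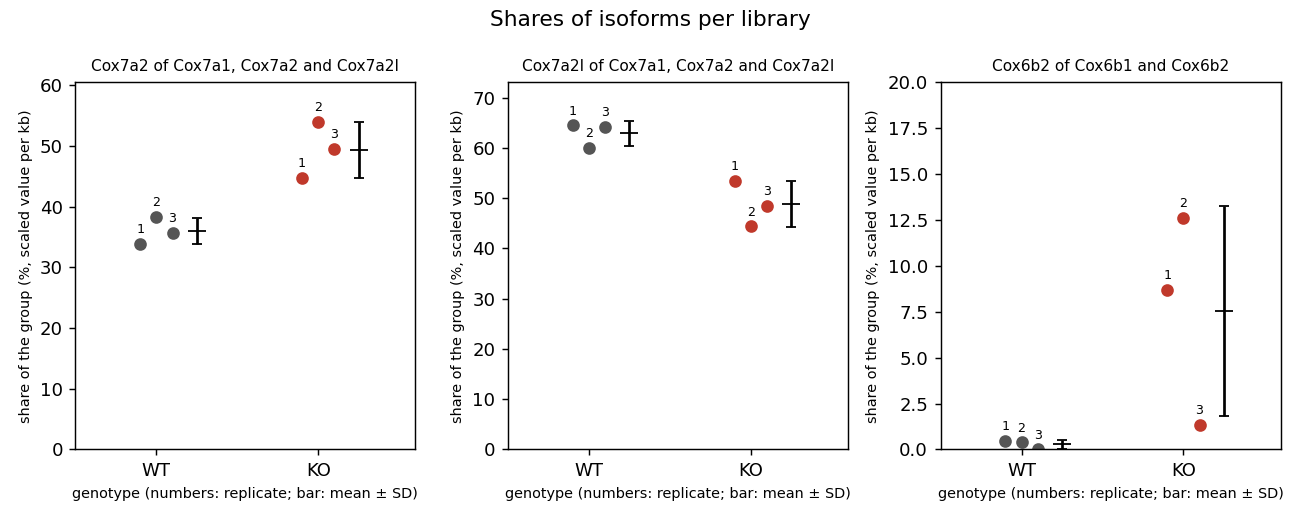
Share of Cox7a2 and of Cox7a2l in the Cox7a group and of Cox6b2 in the Cox6b pair (% of scaled value per kb) for each WT and KO library, numbered by replicate, with the mean ± SD beside the points. The Cox7a2 points lie at 33.9 to 38.3% in WT and 44.8 to 53.9% in KO, and for Cox6b2 KO replicate 3 (1.33%) lies well below the other KO points.

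In the other pathway lists limma called no gene with all libraries. Of 11 genes of complex II and the electron carriers, limma called 0 higher and 0 lower, with a median of -0.12 (0.02 without WT replicate 3). Sdha, the catalytic flavoprotein of complex II, was at 0.01, Cycs (cytochrome c) at -0.65, and Coq7, an enzyme of ubiquinone synthesis, at 0.72. These were at 0.23, -0.33 and 0.48 without that library. Of 15 complex I assembly factors limma called 0 (median -0.29), with Ndufaf6 at 0.96 and Ndufaf7 at -0.60. Of 23 tested assembly factors of complexes III and IV limma called 0 (median -0.25, and -0.13 without WT replicate 3), and Sco2 was listed at 0 in all 6 libraries. Bcs1l, which inserts the Rieske protein into complex III, read 317, 335 and 323 in WT and 175, 182 and 203 in KO, a difference of -0.80 ± 0.19 (limma adjusted p = 0.066, and 0.043 without WT replicate 3). The WT values of Bcs1l were close together and well above the KO values. Uqcc2, another complex III assembly factor, was at -1.05 with KO replicate 1 (584) close to WT. Of 4 assembly and inhibitory factors of complex V limma called 0, and without WT replicate 3 it called Atpif1 higher (1.46) and Tmem70 lower (-0.73).

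Among 12 regulators of mitochondrial biogenesis limma called 0, with a median of -0.18 (-0.05 without WT replicate 3). Ppargc1a, the coactivator PGC-1 alpha, read 252, 235 and 278 in WT and 127, 277 and 324 in KO. Its groups overlapped. Ppargc1b was at -0.79 and Esrra, a nuclear receptor that both coactivate, at -0.54. Without WT replicate 3 limma called Ppargc1b (-1.02) and Esrra (-0.77) lower. Tfam, which packs mitochondrial DNA and acts in its transcription, was at -0.17 (0.02 without WT replicate 3).

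In nascent RNA there is 1 library per genotype and method, so no difference has a replicate check and none was tested. Depth was 10833287 reads for WT and 5583983 for KO in EU, and 3156055 and 2317840 in Br. Ratios are log2(KO/WT) of RPKM + 0.5, centred on the median gene, and reads are given beside them. Intervals (95%, exact Clopper-Pearson) use the reads alone, cover counting error only, and can lie outside a ratio that the added 0.5 has shrunk. The members' median was 0.01 in EU (67 members) and 0.16 in Br (76 members). The members took 0.164% of EU reads in WT and 0.175% in KO, and 0.371% and 0.428% of Br reads.

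Markers of other cells differed between the EU libraries. The 8 stellate cell markers together took 0.0107% of EU reads in WT and 0.0999% in KO, the 4 smooth muscle markers 0.00193% and 0.0226%, and the 4 erythroid markers 0.0091% and 0.152%. The 9 macrophage markers took 0.00397% and 0.0104%, the 5 cholangiocyte markers 0.00072% and 0.00419%, and the 8 hepatocyte markers 5.29% and 3.64%. Genes within a list did not all move alike. EU reads in WT and KO were 188 and 4572 for Hba-a1, 453 and 3914 for Hbb-bt, but 342 and 2 for Alas2. Csf1r had 50 and 85 but Clec4f 97 and 19 and Vsig4 36 and 7. Col3a1 had 529 and 3396 but Lrat 125 and 26, and Acta2 had 113 and 920 but Myh11 18 and 0. In Br the shares were 0.0205% and 0.0372% for stellate cells, 0.00574% and 0.00513% for smooth muscle, 0.0090% and 0.00699% for erythroid cells and 1.41% and 1.25% for hepatocytes. The part of this RNA in the members' EU ratios was not tested.

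Members were spread widely in EU and narrowly in Br. Of 65 members with at least 20 EU reads, 13 were at least 2-fold higher and 8 at least 2-fold lower, where 19.3% and 18% of all such genes were. The higher ones were Ndufa7, Cox7c, Ndufv2, Ndufb6, Ndufa3, Ndufv3, Uqcrb, Ndufs4, Ndufa2, Uqcr11, Ndufa6, Atp5l and Cox6c. The lower ones were Ndufc2, Ndufb11, Ndufa9, Atp5j2, Cox7a2, Ndufa5, Ndufc1 and Ndufa12. Complex I thus held 8 of the 13 and 6 of the 8, and it made up 32 of the 65. The interquartile range of the members was 1.25 (log2) against 1.45 for all genes. In Br, 1 of 76 was at least 2-fold higher and 1 lower, against 5.49% and 4.67%, and the interquartile range was 0.55 against 0.73. No member was 2-fold changed in the same direction by both methods, while of 9596 genes 203 were so higher and 138 lower. Of 65 members with both ratios, 25 were above 0 in both, 14 below 0 in both and 26 had opposite signs. Spearman's rho between the methods was 0.11 across these 65 genes, which share libraries and are not independent replicates.

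The highest EU ratio was that of Ndufa7, a small peripheral arm subunit of complex I, with 52 reads in WT and 254 in KO (2.80). Cox7c had 36 and 109 reads (2.00), and Ndufv2, a core subunit with an iron-sulphur cluster, 252 and 450 (1.85, interval 1.63 to 2.08). In Br the same genes were at 0.41, 0.19 and 0.02. At the low end, Ndufc2 had 63 and 0 EU reads, at least 10.4-fold lower against a floor of 3 reads in the KO library. Ndufb11 had 71 and 0, at least 11.7-fold lower, and Ndufa9 had 131 and 4. Their Br reads were 110 and 90, 74 and 47, and 66 and 84. Atp5j2 had 92 and 3 EU reads and 106 and 51 Br reads, and Cox7a2 had 80 and 7 in EU and 55 and 51 in Br. So these members nearly absent from the KO EU library had reads in the KO Br library, and in mRNA Ndufc2 and Ndufa9 had positive differences.

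In Br the highest ratio was that of Ndufs7, a core iron-sulphur subunit of complex I, with 1300 reads in WT and 1917 in KO (1.01, interval 0.91 to 1.11). Its EU reads were 135 and 67, a centred ratio of 0.01, and its mRNA was at 0.22. Ndufb2 had 103 and 142 Br reads (0.90), although another gene, Braf, overlaps it on the opposite strand. Ndufa9 was at 0.76. The lowest was Ndufa4l2, with 132 and 46 reads (-1.05, interval -1.59 to -0.58), followed by Ndufb9 (309 and 144, -0.65) and Ndufa8 (114 and 52, -0.61). Of the 85 members, 25 overlap a gene on the opposite strand, Ndufa4l2 among them with Shmt2. Whether strand was used in counting is not given in the sources used here, so reads of such pairs cannot be told apart.

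By complex, the Br medians were 0.23 for I, 0.44 for III, 0.16 for IV and -0.10 for V, and 7 of 8 complex III members were above 0. The EU medians were 0.01, -0.12, 0.21 and 0.02. Atp5b, with the most EU reads of the members, had 2303 in WT and 664 in KO (-0.77, interval -0.90 to -0.65) and 737 and 432 in Br (-0.32), while its mRNA was at -0.09. Atp5a1 had 2007 and 1059 in EU and 758 and 534 in Br, with ratios of 0.10 and -0.05. The EU intervals of Atp5b and Atp5a1 (-0.01 to 0.21) do not overlap, and both mRNA differences lay near 0. These intervals cover counting error only, so they do not show a difference between genotypes. Atp5b also overlaps Mir677 and Snord59a on its own strand, and Atp5a1 overlaps Haus1 on the opposite strand.

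**Figure D5:**
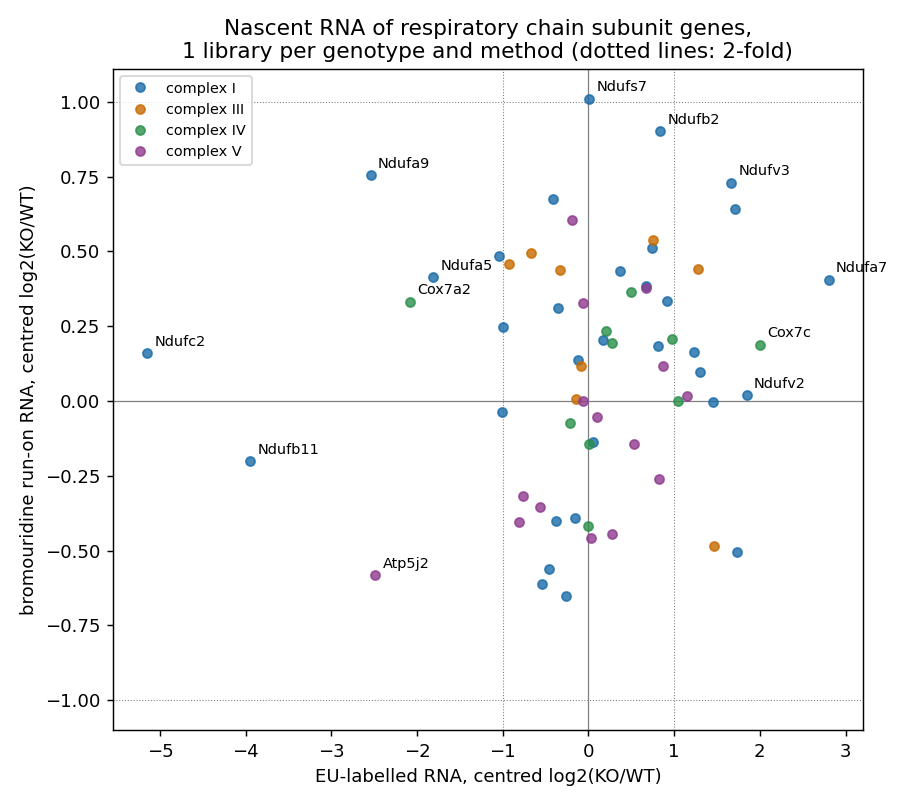
Centred log2(KO/WT) in EU-labelled RNA (x axis) against bromouridine run-on RNA (y axis) for 65 members with both ratios, coloured by complex, 1 library per genotype and method, with dotted lines at 2-fold. Points spread from -5.15 to 2.80 along EU and stay between -0.65 and 1.01 along Br, and no point lies past 2-fold in the same direction on both axes.

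Nascent ratios were set beside the mRNA differences. Of the 13 whose mRNA groups did not overlap downward, 10 had an EU ratio, and 8 of those were above 0 (median 0.79). Of the 12 with a Br ratio, 9 were above 0 (median 0.16). Of the 6 without overlap upward, 2 of 3 EU ratios (median 0.91) and 3 of 4 Br ratios (median 0.25) were above 0. Of all members with a ratio, 35 of 65 in EU and 48 of 76 in Br were above 0. Uqcrh had EU reads of 136 and 114 (0.76) and Br reads of 106 and 113 (0.54). Uqcrb had 57 and 93 in EU (1.46) but 27 and 13 in Br (-0.48). Uqcr11 was at 1.28 in EU and 0.44 in Br, and Cox6a1 at 0.28 and 0.19. Across members, Spearman's rho between the mRNA difference and the nascent ratio was -0.24 for EU (65 genes) and 0.21 for Br (75 genes). These values describe genes measured in the same few libraries.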

How the data were processed

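mRNA values are a score: whole numbers to which the authors scaled their reads with DESeq, per the submitters' processing notes and the spacing of the values. The nascent files hold counts per gene as deposited. All Br values are even and were divided by 2. The RPKM values of the nascent libraries were deposited by the authors with gene lengths often far from transcript lengths, so only ratios within a gene were used. The submitters' processing notes name TopHat2, Bowtie2, Cufflinks and mm9, and the counter is not given in the sources used here. Raw mRNA counts had been planned for, so limma-trend (limma 3.58.1, R 4.3.3, robust) on log2(scaled value + 1) took the place of edgeR. It covered 16813 genes at 10 or more in at least 3 libraries, with Benjamini-Hochberg adjustment over all of them and calls under 0.05. Nascent genes had a mean RPKM of at least 1. Reads were re-estimated from each library's rounding step for edgeR 4.0.16 and DESeq2 1.42.0. The limma fit was tested on simulated data, and the edgeR and DESeq2 fits were not.

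Ensembl IDs were matched to GENCODE vM21, which named 32860 of 37583 genes. Groups came from the sample titles. The members, lists and tests were chosen with earlier results of these data known. Named genes are called members, the highest and lowest difference (mean of at least 100) and the highest levels per complex, up to 5 per direction with no overlap, fixed isoform groups and core subunits, and the 3 highest and lowest nascent ratios. The values of 1 member are not reported here. Alternatives varied the pseudocount, filter, scaling, test, replicate block, weights and libraries.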

Additional observations from a re-analysis of the deposited data

How the results depend on the processing

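Calls among the members moved with the fit. Against 0 higher and 0 lower, DESeq2 called 3 and 7, limma with a replicate block 2 and 2 (2.97% and 3.06% of all genes), and limma without a filter on low values 0 and 1. limma with array weights called 13 and 21, where 2 libraries (WT and KO replicate 2) took weights of 5.04 and 5.26 and the others 0.74 or less, and 25.3% and 24.7% of all genes were called. Leaving out 1 library at a time gave 0 to 2 higher and 0 to 5 lower, with all calls made without WT replicate 3, and medians of -0.24 to -0.01. The other settings (pseudocount 0.5 and 10, a mean of at least 100, TMM, edgeR, coding members only) gave 0 calls, and the median kept its sign under all settings tried. Coding members only, and the settings for the Cox7a2 share, were added after seeing the data. That share's gap was 11.1 to 15.7 points with 1 library left out and 12.2 without division by length.

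Replicate numbers did not pair the libraries: deviations of same-numbered WT and KO libraries correlated at 0.41, -0.24 and 0.20. Not every library correlated best with its own number.

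Of the mRNA differences named by the fixed rule, signs turned as follows. Uqcrc2 was at 0.0097 with TMM, 0.0397 with edgeR, 0.0123 with DESeq2 and 0.0544 with array weights. Ndufa7 was at -0.0185 with DESeq2. With array weights Atp5g2 was at 0.14, Cox4i1 at -0.18, Cox7b at 0.10 and Ndufv1 at -0.10. With 1 library left out, Atp5g1 ranged from -0.86 to 0.0845, Atp5g2 from -0.45 to 0.33, Atp5g3 from -0.24 to 0.12, Cox4i1 from -0.0497 to 0.31, Cox7c from -0.55 to 0.11 and Cox8a from -0.45 to 0.0416. Ndufa4 ranged from -0.11 to 0.74, Ndufa4l2 from -0.26 to 0.18, Ndufa7 from -0.12 to 0.18, Ndufb11 from -0.57 to 0.17 and Ndufs1 from -0.26 to 0.12. Ndufv1 ranged from -0.0896 to 0.28, Uqcrc2 from -0.16 to 0.20 and Uqcrfs1 from -0.30 to 0.0564.

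The median EU ratio was -0.0514 without centring and 0.31 over the 41 members with a mean RPKM of at least 5. The Br median was 0.16 to 0.19 under all settings tried. The cause of these changes was not tested. With 3 libraries per group and a median SE of 0.24 for the members' log2 differences, and with 1 nascent library per genotype, small differences were not detectable. In simulated mRNA data of 16813 genes limma recovered 12 of 100 changes of 2-fold and 87 of 100 of 4-fold.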
